A study of Homo sapiens with 8 samples.

Results

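The 40 genes described here are the human aminoacyl-tRNA synthetases and the scaffold proteins that hold some of them together, out of 60234 genes in the normoxia table and 60612 in the hypoxia table. They were chosen by symbol: 18 make cytosolic enzymes, 17 make mitochondrial enzymes, 2 (GARS1 and KARS1) make both forms, and 3 (AIMP1, AIMP2 and EEF1E1) are scaffold proteins. The cells were DLD1, a human colorectal cancer line. Poly(A) RNA was sequenced from 4 groups of 2 libraries, 8 in all: shPP cells under normoxia (HO) and under hypoxia (LO), which carry a hairpin against PPA2 and whose genotype label is PPA2 knockdown, and shNT cells under normoxia and under hypoxia, which carry the control hairpin and whose genotype label is WT. Exposure lasted 12 h. The labels do not say how many hairpins or clones were used, nor whether libraries came from separate cultures, so a p-value here reflects only how these particular libraries varied.

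An aminoacyl-tRNA synthetase joins an amino acid to the tRNA that carries it to the ribosome. Cytosolic and mitochondrial protein synthesis use separate sets, and the mitochondrial enzymes are encoded in the nucleus, made in the cytosol and imported. Several cytosolic synthetases are bound in one multisynthetase complex by AIMP1, AIMP2 and EEF1E1. Many cytosolic synthetase genes are known to be switched on by ATF4 during the integrated stress response, through a composite C/EBP-ATF response element in their promoters, while WARS1 is also known as a gene that interferon gamma induces. PPA2, the gene the hairpin is directed against, is the mitochondrial inorganic pyrophosphatase, which splits the pyrophosphate that reactions such as tRNA charging release.

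The libraries can be summarised briefly. PPA2 was at 5.88 and 5.74 RPKM in shPP cells under normoxia, against 79.8 and 84.1 RPKM in shNT cells, and at 9.85 and 9.0 FPKM in shPP cells under hypoxia, against 65.5 and 50.8 FPKM in shNT cells. Replicates correlated at r of 0.992 to 0.995 across genes, and libraries of different hairpins at 0.979 to 0.982 under normoxia and 0.930 to 0.934 under hypoxia. Colorectal epithelial markers summed to 3451 to 4033 RPKM and 3181 to 3642 FPKM per library, while the summed markers of fibroblasts, leukocytes and endothelium each stayed at or below 1.35 in every library. Genes of the mitochondrial genome held 11.4% to 12.1% of the summed values in shPP and 10.7% to 11.2% in shNT cells under normoxia, and 12.4% to 12.5% in shPP and 7.60% to 8.45% in shNT cells under hypoxia. Their part in the results was tested only as the scaling without those genes given below.

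Because ATF4 targets make up much of the list, the promoters that hold the ATF4 element are shown first. RefSeq promoter windows, from 250 bases before to 50 bases after the start, were matched for 33 of the 40 genes in GRCh38.p14. LARS1, VARS1, YARS1, AARS2 and VARS2 are among those with no entry matched. The core letters TGATGNAA or their reverse complement TTNCATCA, searched on both strands, were found in 7 of the 33, or 21.2%, against 3.62% of all 35116 promoters of the same length. By class, they were in 6 of 10 synthetases on a list of known ATF4 targets, in 0 of 6 other genes of cytosolic or both enzymes, and in 1 of 14 mitochondrial synthetases, YARS2. The sequences below are stretches around the match for the 4 genes with the largest mean change among those that hold the core, with the matched core in capitals. They lie at chr12:57488004-57488087 on the plus strand for MARS1, chr16:70289646-70289753 on the minus strand for AARS1, chr5:33440907-33440984 on the plus strand for TARS1 and chr11:3057404-3057485 on the minus strand for CARS1.
MARS1: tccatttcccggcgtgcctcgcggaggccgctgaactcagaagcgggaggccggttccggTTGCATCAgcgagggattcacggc
AARS1: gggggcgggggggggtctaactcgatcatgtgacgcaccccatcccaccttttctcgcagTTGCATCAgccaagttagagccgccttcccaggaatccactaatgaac
TARS1: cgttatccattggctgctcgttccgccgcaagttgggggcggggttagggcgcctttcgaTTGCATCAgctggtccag
CARS1: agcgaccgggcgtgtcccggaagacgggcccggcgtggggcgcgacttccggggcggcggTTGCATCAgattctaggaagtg
All 4 carry the same 8 letters. The match begins 4 bases before the RefSeq start in MARS1, 2 before it in CARS1, 2 after it in TARS1 and 187 before it in AARS1. The coordinates given with the hypoxia values place the AARS1 start at chr16:70289707, within the printed stretch. For the others they place it outside the printed stretch, at chr12:57475445 for MARS1, chr5:33440696 for TARS1 and chr11:3057613 for CARS1. The distances in all 4 genes therefore depend on the start used. IARS1 holds the same letters 13 bases before its start, NARS1 holds TGATGCAA 14 bases after its start, and YARS2 holds TGATGGAA 197 bases before its start. The gamma-activated site TTCNNNGAA was in 4 of the 33 promoters, those of CARS1, PARS2, TARS1 and WARS2, and in 7.66% of all promoters. In the 250 bases before the start alone, the C/EBP-ATF core was in 3 of the 33 promoters, or 9.09%, against 3.14% of all, and in 2 of the 10 listed ATF4 targets. A match describes letters in a window and shows no binding.

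With either hairpin, the genes of cytosolic enzymes had the higher median level per unit of transcript length. Under normoxia the 18 cytosolic synthetase genes had a median level of 65.8 RPKM in shPP cells and 75.4 RPKM in shNT cells, where they ran between 19.7 RPKM for FARSB and 212 RPKM for TARS1. The 17 mitochondrial genes had a median level of 10.98 RPKM in shPP cells and 12.8 RPKM in shNT cells, with IARS2, the mitochondrial isoleucine enzyme, highest at 75.0 RPKM in shNT cells. Under hypoxia the cytosolic median was 37.1 FPKM in shPP cells and 58.1 FPKM in shNT cells, and the mitochondrial median 5.42 FPKM in shPP cells and 9.84 FPKM in shNT cells. The tables were normalized separately, so a level in one is not compared with a level in the other.

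The first comparison asks what depletion of PPA2 did to these genes under normoxia. Of the 38 genes tested, 17 fell and 1 rose, RARS2, the mitochondrial arginine enzyme. Across all 14090 genes tested, limma with Benjamini-Hochberg adjustment called 34.2%, of which more rose (22.5%) than fell (11.7%). The median log2 fold change of the 38 was -0.19, beside 0.07 for all genes. SARS2, with a mean under 1 RPKM, was not tested, and neither was VARS2, which was listed at 0 in all 4 libraries. GTF2H4, a subunit of a general transcription factor that overlaps VARS2 and that cells need, was also listed at 0 there, so nothing is said of VARS2 under normoxia. In the plot of fold changes by gene, most normoxia points lie left of the median of all genes.

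**Figure D1:**
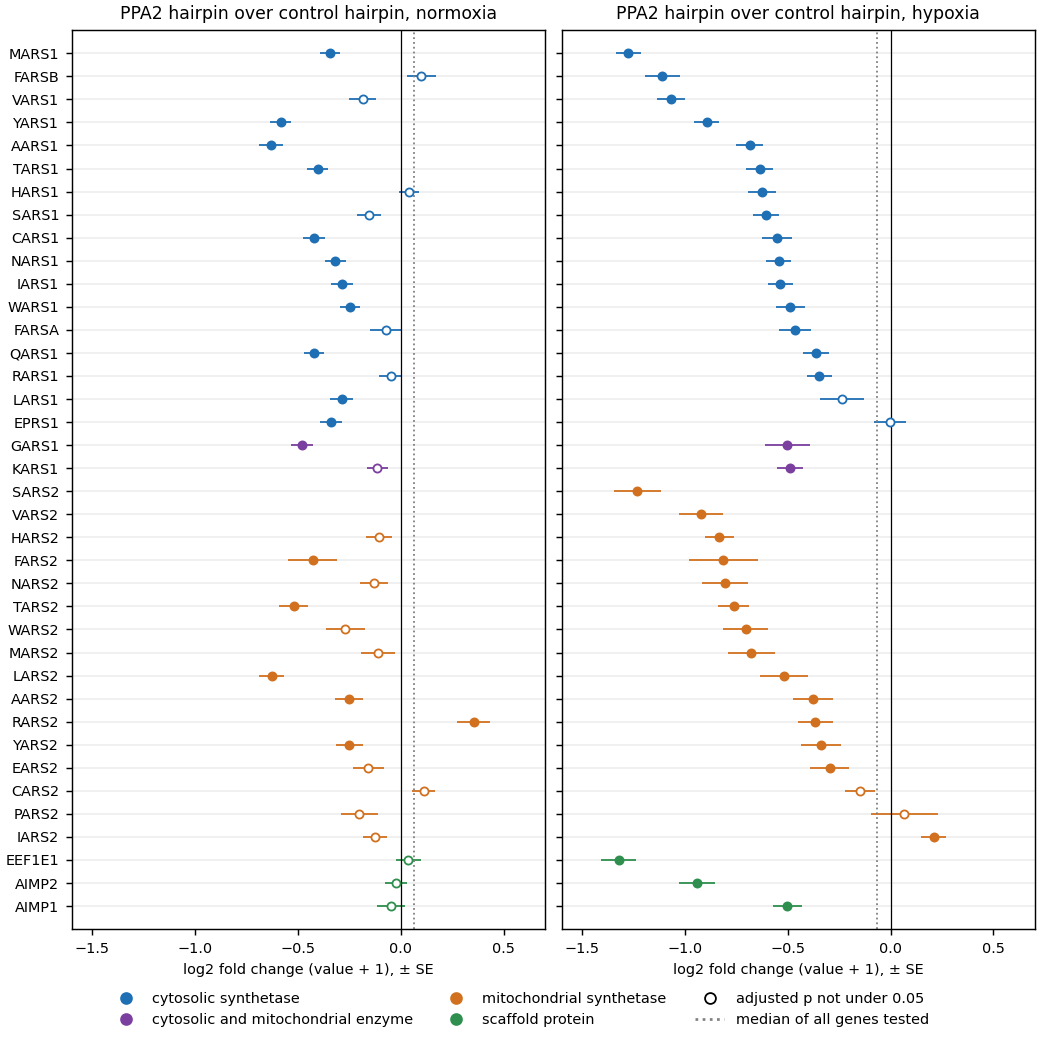
Log2 fold change (value + 1) of shPP over shNT for 38 of the 40 genes, normoxia left and hypoxia right, with bars of ± 1 SE from limma (2 libraries per group). Filled points had an adjusted p under 0.05, colours give the enzyme's place, and the dotted line is the median of all genes tested: under hypoxia the points spread to -1.32 for EEF1E1, with IARS2 the filled point on the right.

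The genes that fell under normoxia were mostly the listed ATF4 targets. Of those 12 genes, 11 fell and SARS1, the serine enzyme, did not pass (-0.15, adjusted p = 0.0781), with a median of -0.34. Of the 8 other genes of cytosolic or both enzymes, 1 fell, QARS1, with a median of -0.09. Of the 15 mitochondrial genes tested, 5 fell and 1 rose, with a median of -0.16. None of the 3 scaffold genes was called under normoxia, where their changes ran between -0.05 and 0.04. The classes' counts were not tested against each other.

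AARS1, the alanine enzyme, had 28.8 and 27.7 RPKM in shPP cells, against 45.9 and 42.8 RPKM in shNT cells, a log2 fold change of -0.63 ± 0.06 (SE, n = 2 libraries per group, limma adjusted p = 0.00119). YARS1, the tyrosine enzyme, had 71.4 and 68.4 RPKM in shPP cells, against 105 and 106 RPKM in shNT cells, a change of -0.58 ± 0.05 (adjusted p = 0.000893). GARS1, which makes the glycine enzyme of both compartments, had 76.8 and 81.8 RPKM in shPP cells, against 109 and 112 RPKM in shNT cells, a change of -0.48 ± 0.05 (adjusted p = 0.00195). In each of these genes the shPP libraries lay below both shNT libraries, with a gap wider than the distance between replicates. CARS1, the cysteine enzyme, had 25.4 and 25.1 RPKM in shPP cells, against 34.9 and 33.5 RPKM in shNT cells, a change of -0.42 ± 0.05 (adjusted p = 0.00287). QARS1, the glutamine enzyme of the multisynthetase complex, had 80.8 and 79.6 RPKM in shPP cells, against 109 and 106 RPKM in shNT cells, a change of -0.42 ± 0.05 (adjusted p = 0.00197). The groups did not overlap in either gene. KARS1, which makes the lysine enzyme of both compartments, had 149 and 148 RPKM in shPP cells, against 157 and 165 RPKM in shNT cells (-0.11, adjusted p = 0.127), and did not pass the test.

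The other listed ATF4 targets that fell changed by less. They were TARS1 for threonine (-0.40, adjusted p = 0.00285), MARS1 for methionine (-0.34, adjusted p = 0.00402), EPRS1, the fused glutamate and proline enzyme (-0.34, adjusted p = 0.00583), NARS1 for asparagine (-0.32, adjusted p = 0.00539), LARS1 for leucine (-0.29, adjusted p = 0.0102), IARS1 for isoleucine (-0.28, adjusted p = 0.00917) and WARS1 for tryptophan (-0.25, adjusted p = 0.0112). WARS1 had 44.2 and 44.1 RPKM in shPP cells, against 52.2 and 52.9 RPKM in shNT cells. The other 7 listed interferon gamma targets with enough signal all rose under normoxia, among them PSMB9, an immunoproteasome subunit (1.80, adjusted p = 0.000235) and HLA-B (1.75, adjusted p = 5.88e-05). WARS1 moved the other way from these genes.

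Among mitochondrial enzymes, LARS2, for leucine, fell as far as AARS1: it had 9.73 and 9.78 RPKM in shPP cells, against 15.4 and 15.8 RPKM in shNT cells, a change of -0.63 ± 0.06 (adjusted p = 0.0013). TARS2, for threonine, had 14.8 and 13.4 RPKM in shPP cells, against 21.1 and 20.2 RPKM in shNT cells, a change of -0.52 ± 0.07 (adjusted p = 0.00325). FARS2, for phenylalanine, had 1.71 and 2.12 RPKM in shPP cells, against 2.80 and 3.04 RPKM in shNT cells, a change of -0.43 ± 0.12 (adjusted p = 0.0329). The shPP libraries were the lower ones in all 3 genes, and FARS2 is close to the minimum level tested, where the added 1 understates a change. AARS2 (-0.25, adjusted p = 0.0322) and YARS2 (-0.25, adjusted p = 0.0282) fell as well. RARS2 had 27.0 and 30.3 RPKM in shPP cells, against 21.0 and 23.3 RPKM in shNT cells, a change of 0.35 ± 0.08 (adjusted p = 0.0169), with the shPP libraries above both shNT libraries.

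Of the 18 normoxia calls, 7 did not hold when 1 library was left out. Without control library 1, the changes were -0.22 for YARS2, -0.47 for FARS2, 0.28 for RARS2, -0.25 for WARS1 and -0.26 for AARS2. Without control library 2, they were -0.28 for YARS2, -0.38 for FARS2, -0.26 for LARS1, -0.24 for WARS1, -0.24 for AARS2 and -0.25 for IARS1. The remaining cases were -0.23 for YARS2 and -0.33 for FARS2 without shPP library 1, and 0.28 for RARS2 and -0.23 for AARS2 without shPP library 2. The direction stayed the same each time. Of all calls under normoxia 65.7% were higher, against 48.6% with libraries scaled by size factors, where 24 of the 38 genes were called (23 lower), and 75.5% with libraries scaled without genes of the mitochondrial genome, where 16 were (15 lower). Across all 14090 genes tested, 4724 were called with size factors (2426 lower) and 5267 without genes of the mitochondrial genome (1288 lower).

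The second comparison puts the same hairpins side by side after 12 h of hypoxia. Here 33 of 40 genes fell, 2 rose, IARS2 among them, and 5 did not pass the test. The share of all 13080 genes tested that limma called was 58.4%, with 33.8% lower and 24.6% higher. The median log2 fold change of the 40 was -0.54, beside -0.06 for all genes. Every class contributed: 10 of 12 listed ATF4 targets fell, 7 of 8 other genes of cytosolic or both enzymes, 13 of 17 mitochondrial genes and 3 of 3 scaffold genes. The bars of calls by class show the same counts as shares.

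**Figure D2:**
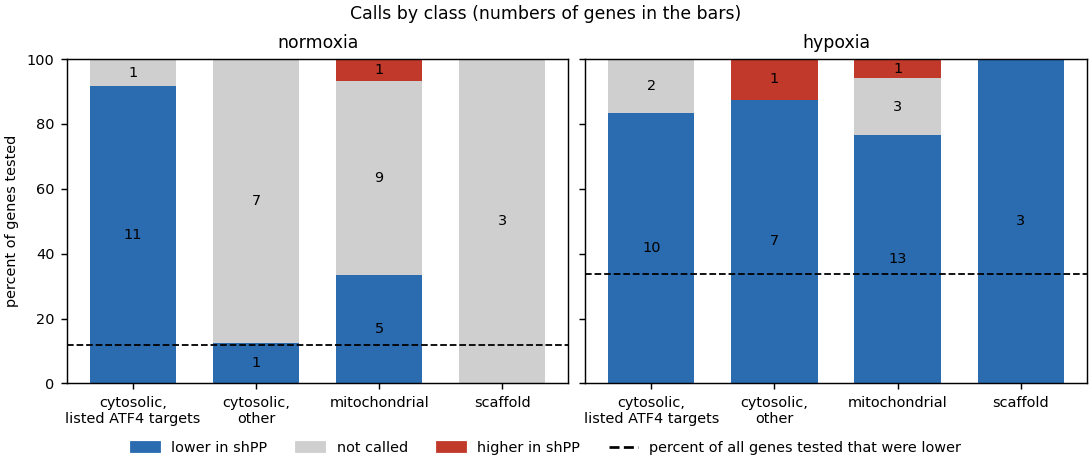
Percent of the genes tested in each class that were lower (blue), not called (grey) or higher (red) in shPP than in shNT cells, normoxia left and hypoxia right, with the number of genes in each bar. Genes of both compartments are counted with the cytosolic classes, and the dashed line is the percent of all genes tested that were lower, 11.7% under normoxia and 33.8% under hypoxia.

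The scaffold genes, none of which was called under normoxia, held the largest fall under hypoxia. EEF1E1 (chr6:8073360-8102559, minus strand), the scaffold that carries the methionine enzyme, had 19.8 and 22.1 FPKM in shPP cells, against 56.9 and 51.0 FPKM in shNT cells, a log2 fold change of -1.32 ± 0.09 (adjusted p = 6.17e-05). AIMP2, the central scaffold, had 6.40 and 7.23 FPKM in shPP cells, against 13.9 and 14.1 FPKM in shNT cells, a change of -0.94 ± 0.09 (adjusted p = 0.000203). AIMP1 had 14.1 and 14.8 FPKM in shPP cells, against 21.1 and 20.7 FPKM in shNT cells, a change of -0.50 ± 0.07 (adjusted p = 0.00112). The groups did not overlap in any of them. Under normoxia the groups overlapped in all 3: EEF1E1 had 20.1 and 21.0 RPKM in shPP cells, against 20.5 and 19.6 RPKM in shNT cells (0.04, adjusted p = 0.654).

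Among the synthetases themselves, MARS1 (chr12:57475445-57517569, plus strand) had 36.4 and 36.5 FPKM in shPP cells, against 91.2 and 88.3 FPKM in shNT cells, a change of -1.28 ± 0.06 (adjusted p = 2.91e-05). FARSB (chr2:222566899-222656092, minus strand), the beta subunit of the cytosolic phenylalanine enzyme, had 4.63 and 4.85 FPKM in shPP cells, against 11.4 FPKM in both shNT libraries, a change of -1.11 ± 0.08 (adjusted p = 0.000106). VARS1, the valine enzyme, had 21.3 and 22.7 FPKM in shPP cells, against 46.5 and 47.9 FPKM in shNT cells, a change of -1.07 ± 0.07 (adjusted p = 6.04e-05). In each the shPP libraries lay far below the shNT libraries, and the replicates lay close together. YARS1 had 37.97 and 37.76 FPKM in shPP cells, against 71.7 and 70.9 FPKM in shNT cells, a change of -0.90 ± 0.06 (adjusted p = 7.07e-05). FARSA, the alpha subunit that pairs with FARSB, fell by 0.47 on the log2 scale (adjusted p = 0.00233), with 26.3 and 26.0 FPKM in shPP cells, against 38.9 and 34.3 FPKM in shNT cells.

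The 2 mitochondrial genes with no test under normoxia were among those that fell most under hypoxia. SARS2, for serine, had 4.40 and 5.05 FPKM in shPP cells, against 13.5 and 11.4 FPKM in shNT cells, a change of -1.23 ± 0.11 (adjusted p = 0.000188). VARS2, for valine, had 6.27 and 5.73 FPKM in shPP cells, against 13.4 and 11.2 FPKM in shNT cells, a change of -0.92 ± 0.11 (adjusted p = 0.000483). Both have exons under other genes in the annotation, 57.0% of exonic bases for SARS2 (AC011455.2 and MRPS12, 46.2% on the same strand) and 22.0% for VARS2 (GTF2H4, on the same strand). How the authors assigned reads there is not given in the sources used here. AIMP2 shares 28.9%, EEF1E1 18.7%, HARS2 15.8% and MARS1 13.3% of exonic bases with other genes. For MARS1 these include ARHGAP9 and DDIT3, and 12.4% lie under genes of the opposite strand. DDIT3, itself a listed ATF4 target, fell by 1.40 on the log2 scale under hypoxia, and the part of such overlaps in the results was not tested.

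Of the other mitochondrial genes, HARS2 for histidine (-0.83), FARS2 (-0.81), NARS2 for asparagine (-0.80), TARS2 (-0.76), WARS2 for tryptophan (-0.71), MARS2 for methionine (-0.68), LARS2 (-0.52), AARS2 (-0.38), RARS2 (-0.37), YARS2 (-0.34) and EARS2 for glutamate (-0.30) fell. CARS2 (-0.15) and PARS2 (0.07) did not pass the test. Of the cytosolic genes not yet named, AARS1 (-0.69), TARS1 (-0.64), HARS1 (-0.63), SARS1 (-0.61), CARS1 (-0.55), NARS1 (-0.54), IARS1 (-0.54), WARS1 (-0.49), QARS1 (-0.36) and RARS1 (-0.35) fell. GARS1 (-0.50) and KARS1 (-0.49), the genes of both compartments, did so by about the same amount: KARS1 had 65.8 and 68.9 FPKM in shPP cells, against 96.6 and 93.1 FPKM in shNT cells. GARS1 had 52.4 and 41.7 FPKM in shPP cells, against 68.9 and 64.5 FPKM in shNT cells.

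IARS2 went the other way. It had 60.4 and 60.2 FPKM in shPP cells, against 51.6 and 52.4 FPKM in shNT cells, a change of 0.21 ± 0.06 (adjusted p = 0.0214). Both shPP values lay above the shNT values. EPRS1 had 64.4 and 66.1 FPKM in shPP cells, between the 61.1 and 69.9 FPKM in shNT cells (adjusted p = 0.982), and LARS1 had 16.5 and 14.0 FPKM in shPP cells, against 16.7 and 19.5 FPKM in shNT cells (-0.24, adjusted p = 0.0977).

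Calls of 8 genes under hypoxia did not hold without 1 library. Without shPP library 1, the changes were 0.21 for IARS2, -0.26 for EARS2, -0.32 for AARS2 and -0.31 for YARS2. Without shPP library 2, they were 0.21 for IARS2, -0.33 for EARS2, -0.37 for YARS2, -0.40 for LARS2 and -0.27 for RARS2. They were -0.24 for YARS2 and -0.46 for GARS1 without control library 1, and -0.25 for EARS2 without control library 2. Scaling the libraries without genes of the mitochondrial genome shifted the median of all genes to 0.10, and 29 of the 40 were then called, 27 lower and 2 higher. Of all calls under hypoxia 42.2% were higher, against 60.4% with that scaling, where 7588 of all 13080 genes tested were called (3003 lower).

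**Figure D3:**
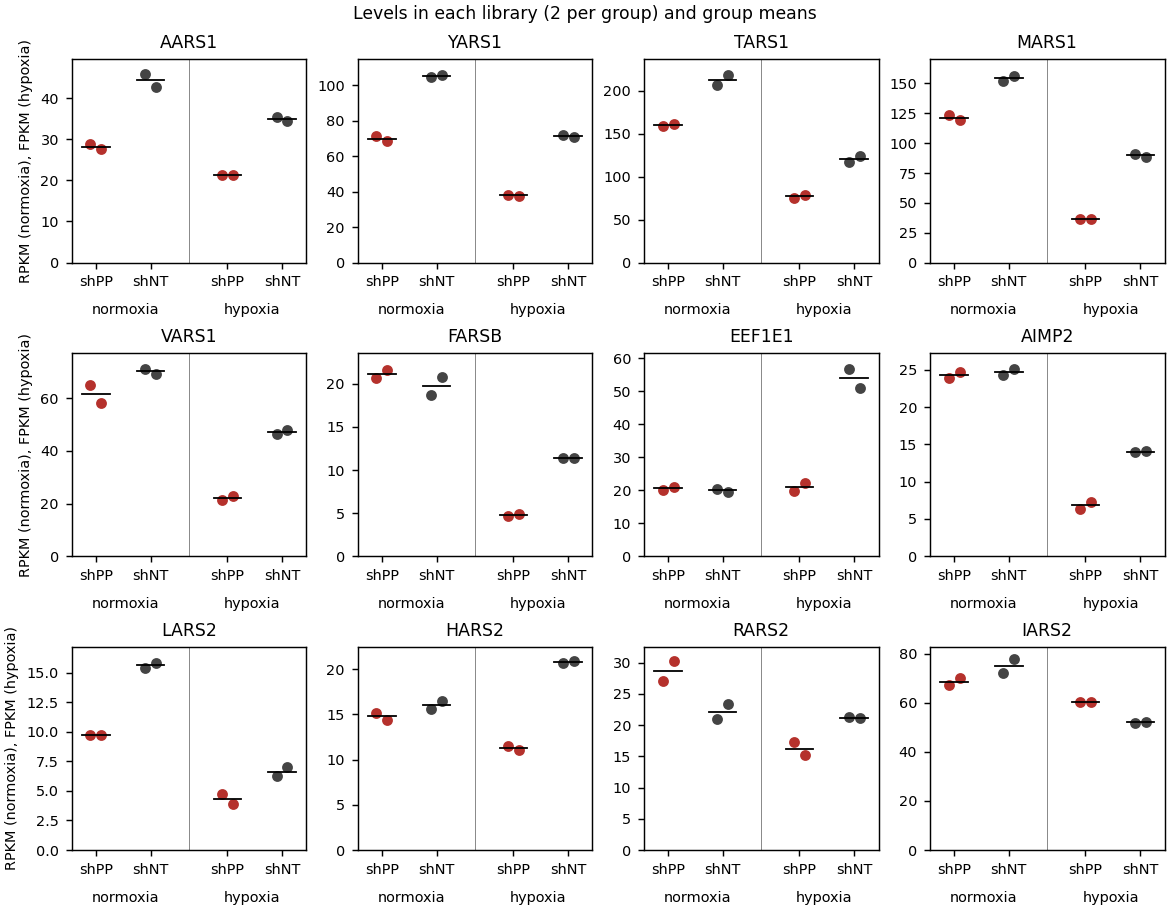
Level of 12 genes in each library (points) with the mean of the 2 libraries of a group (bars), in RPKM under normoxia and FPKM under hypoxia, shPP in red and shNT in dark grey. The tables were normalized separately, so only points on the same side of the grey line can be compared: EEF1E1, AIMP2 and FARSB overlap or nearly meet under normoxia and stand apart under hypoxia.

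Counted by library values alone, 29 genes under normoxia had both shPP libraries below both shNT libraries, 3 had them above, and 8 overlapped. The 8 include SARS2 and VARS2, which were not among the genes tested under normoxia. Across all genes tested, 70.5% did not overlap, 26.4% below and 44.2% above. Under hypoxia the counts were 35 below, 2 above and 3 overlapping, beside 80.4% of all genes without overlap, 44.9% below and 35.5% above.

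The third comparison sets the knockdown response under hypoxia against that under normoxia. Each oxygen level is a table of its own, made in a different unit, with genes such as VARS2, GTF2H4 and AARSD1 listed at 0 in all normoxia libraries and with values in the hypoxia table, so a difference by oxygen cannot be told apart from a difference in how the tables were made. Of 38 genes tested under both, 15 fell under both: AARS1, CARS1, GARS1, IARS1, MARS1, NARS1, QARS1, TARS1, WARS1 and YARS1 among the cytosolic or dual genes, and AARS2, FARS2, LARS2, TARS2 and YARS2 among the mitochondrial ones. A further 15 were called lower under hypoxia alone, EPRS1 and LARS1 were called lower under normoxia alone, RARS2 was called in opposite directions, and 3, with CARS2 and PARS2 among them, were called under neither. In 30 of the 38 the log2 fold change was the more negative one under hypoxia. The median difference over all 13585 genes tested was itself negative, at -0.13, and -0.01 with libraries scaled by size factors. How many of all genes fell under both, fell under hypoxia alone or were the more negative there was not counted. The sizes of the 2 changes had little relation across the 38 genes (Pearson r = 0.072, Spearman rho = 0.087, given as a description; genes are not independent replicates).

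**Figure D4:**
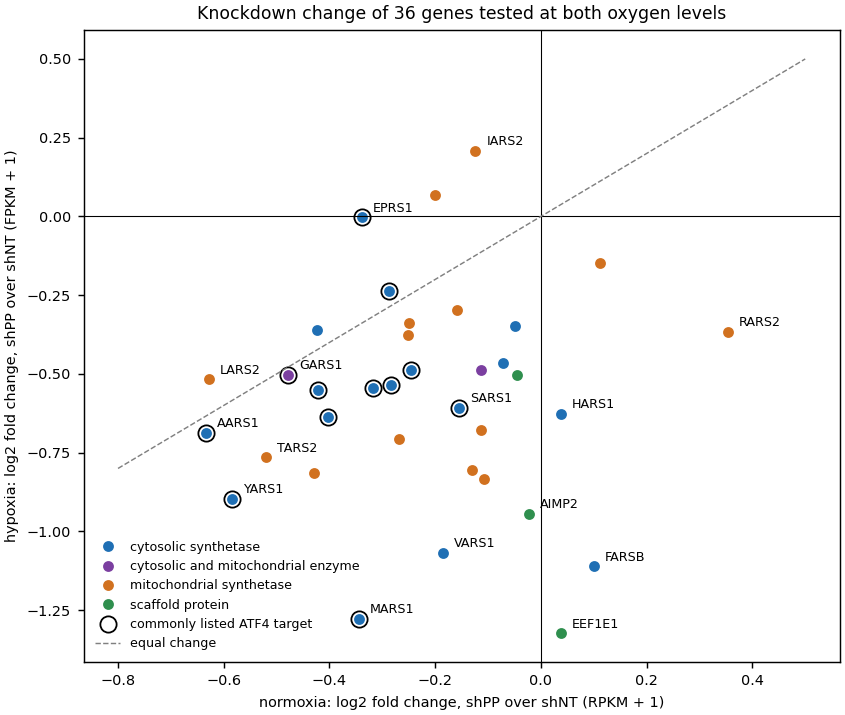
Log2 fold change of shPP over shNT under normoxia (horizontal, RPKM + 1) and hypoxia (vertical, FPKM + 1) for 36 of the 38 genes tested under both, coloured by place, with rings on the listed ATF4 targets and a dashed line of equal change. Most points lie below the line: FARSB, AIMP2 and EEF1E1 sit near 0 across and far down, and IARS2 and EPRS1 lie above it.

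Tested directly as an interaction, the response was more negative under hypoxia in 22 of the 38 genes tested under both and more positive in 3. The share of all 13585 genes tested that limma called was 42.4%, with 29% more negative and 13.4% more positive. EEF1E1 had the largest difference, -1.36 ± 0.11 (adjusted p = 2.59e-05) and FARSB came next at -1.21 ± 0.10 (adjusted p = 3.63e-05). MARS1 differed by -0.93 ± 0.08 (adjusted p = 2.68e-05), AIMP2 by -0.92 ± 0.10 (adjusted p = 0.000121), VARS1 by -0.88 ± 0.10 (adjusted p = 0.000115) and HARS2 by -0.73 ± 0.09 (adjusted p = 0.000289). All of these fell under hypoxia, and of them MARS1 alone had also been called under normoxia. RARS2, higher in shPP cells under normoxia and lower under hypoxia, differed by -0.72 ± 0.12 (adjusted p = 0.00127). SARS2 and VARS2 passed the filter on low values only through the hypoxia libraries, so their difference follows from the hypoxia change and is not counted here; with them the counts are 24 and 3 of 40.

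IARS2 (0.33, adjusted p = 0.00933) and EPRS1 (0.34, adjusted p = 0.0229) were among the genes that had the more positive response under hypoxia. AARS1, the gene with the largest fall under normoxia, differed by -0.05 ± 0.09 (adjusted p = 0.641), and GARS1 by -0.02 ± 0.13 (adjusted p = 0.9). With libraries scaled by size factors, which moved the median difference of all genes to -0.01 in place of -0.13, 15 of the 38 passed the threshold, 3 more positive and 12 more negative. With that scaling 5573 of all 13585 genes tested passed, 2755 more positive and 2818 more negative, so the share of the 38 called lay near that of all genes. Of all calls 31.5% were more positive, against 49.4% with size factors and 47.2% with libraries scaled without genes of the mitochondrial genome. The EPRS1 call did not hold when any 1 of 5 libraries was left out, both control ones and shPP library 1 under normoxia and both shPP ones under hypoxia, with values of 0.35, 0.32, 0.28, 0.36 and 0.32, and the IARS2 call did not hold without control library 2 under normoxia (0.28).

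The genes can also be read in pairs, since 14 amino acids have one cytosolic and one mitochondrial enzyme gene. Under normoxia 12 pairs were tested, both changes were negative in 9, both were called in 4 (alanine, leucine, threonine and tyrosine), and the cytosolic gene had the lower value in 7. The cytosolic change was the more negative by 0.53 for cysteine, 0.40 for arginine and 0.38 for alanine, and the mitochondrial one by 0.34 for leucine. Under hypoxia both changes were negative in 12 of 14 pairs, and the cytosolic gene had the lower value in 6. Both were called in 11, counted in either direction, and the isoleucine pair among them was called in opposite directions. The gap was widest for isoleucine, where IARS1 fell by 0.54 on the log2 scale and IARS2 rose by 0.21. For serine SARS2 fell by 1.23 and SARS1 by 0.61. No pair's gap was tested.

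Counts by complex and by catalytic class stand beside the share of all genes that fell, 11.7% under normoxia and 33.8% under hypoxia, and the groups were not tested against each other. By complex, 5 of the 8 synthetases bound in the multisynthetase complex fell under normoxia and 7 of the 12 outside it. Under hypoxia 5 of the 8 fell and 1 rose, beside 12 of 12 outside it that fell. By catalytic class, 15 of 18 class I and 15 of 18 class II enzymes fell under hypoxia, and 9 of 17 class I and 7 of 17 class II under normoxia.

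By promoter, the 7 genes with the core letters printed above all fell under both oxygen levels, with a median log2 fold change of -0.34 under normoxia and -0.55 under hypoxia. As given above, the YARS2 calls at both oxygen levels and the IARS1 call under normoxia did not always hold when 1 library was left out. Among genes with a promoter entry and no core, 7 of 25 fell under normoxia (median -0.12) and 22 of 26 under hypoxia (median -0.51). Across all genes tested, 11.7% fell under normoxia and 33.8% under hypoxia. Since 6 of the 7 genes with the core are listed ATF4 targets, this split largely repeats that list. Of listed targets with an entry and no core, GARS1 (-0.48), EPRS1 (-0.34) and WARS1 (-0.25) fell under normoxia too, and SARS1 (-0.15) did not pass. The part of the core was not tested. ATF4 itself had 119 and 112 RPKM in shPP cells, against 204 and 203 RPKM in shNT cells (-0.81, adjusted p = 0.000409). Under hypoxia it had 117 and 110 FPKM in shPP cells, against 199 and 191 FPKM in shNT cells (-0.77, adjusted p = 0.000147). Its shPP libraries were the lower ones at both oxygen levels.

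Listed ATF4 targets other than synthetases did not all move with it. Across all genes tested, 11.7% fell and 22.5% rose under normoxia, and 33.8% fell and 24.6% rose under hypoxia. At both oxygen levels the share of these targets that fell was above that of all genes, and the share that rose was below it. Of 25 tested under normoxia, 16 fell and 3 rose. Among those that fell were SLC7A5 (-1.03), a large neutral amino acid transporter, SLC7A11 (-0.85), the cystine transporter, and SHMT2 (-0.63), of mitochondrial one-carbon metabolism. Of 27 tested under hypoxia, 15 fell and 5 rose. ASNS, asparagine synthetase (-1.16), and SLC3A2, the partner chain of amino acid transporters (-1.19), fell there, and TRIB3 (0.51) and SESN2 (0.83) rose. SLC7A5 changed by 0.12 under hypoxia (adjusted p = 0.133). ASNS was listed under 1 RPKM in every normoxia library and was not tested there. Of the 7 genes on the list of ATF4 and the kinases and proteins upstream of it, 4 rose and 1, ATF4, fell under normoxia, and 1 rose and 3 fell under hypoxia, including GCN1, a co-activator of the kinase GCN2 (-0.44). The share of that list called under hypoxia lay near the 58.4% of all genes.

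Genes that work beside the synthetases were counted from lists of their own, and several counts lie near or below the share of all genes called, which was 34.2% under normoxia (11.7% lower, 22.5% higher) and 58.4% under hypoxia (33.8% lower, 24.6% higher). Of the 5 partners of mitochondrial tRNA charging, GATB, a subunit of the amidotransferase that makes glutaminyl-tRNA, fell (-0.41) and TRNT1, which adds the CCA end to tRNAs, rose (0.38) under normoxia. Under hypoxia 3 of the 5 fell, QRSL1 (-0.74), MTFMT (-0.30) and GATC (-0.23). Of tRNA processing and export genes, 4 of 22 fell and 1 rose under normoxia, against 18 of 22 that fell and 1 that rose, TSEN34 (0.34), under hypoxia. XPOT, the tRNA exporter, was at -0.31 under normoxia and -0.82 under hypoxia, and RPP40 and POP5, subunits of RNase P, which trims the front of tRNAs, were at -1.09 and -1.01 under hypoxia. RNA polymerase III genes fell in 5 of 22 cases and rose in 1 under normoxia, and fell in 11 of 22 under hypoxia, with POLR3K lowest at -1.19. At both oxygen levels the share called in either direction was below that of all genes, and the share that fell was above it. Of elongation factors, 6 of 9 fell and 1 rose under normoxia, and 6 of 11 fell and 1 rose under hypoxia. TUFM, the mitochondrial factor that delivers charged tRNA, fell under both (-0.37 and -0.66), and EEF1A2 rose under both (0.35 and 0.93). Of 6 other tRNA charging and editing genes tested under normoxia, 2 rose and 1 fell, and of 7 under hypoxia, 1 rose and 4 fell. In bulk RNA, a change in the amount of RNA per cell cannot be told apart from a change in the mix of cells.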

How the data were processed

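RNA of 8 DLD1 libraries was sequenced by the authors. The submitters' processing notes name cutadapt 1.18, Trimmomatic 0.35, FastQC, HISAT2 2.1.0 and the build GRCh38. How reads were counted, with which strand setting and gene models, is not given in the sources used here. Normoxia values were deposited as RPKM and hypoxia values as FPKM, per the file headers. The hypoxia table's annotated sheet gave identical values and GRCh38 coordinates, its correlation sheet was not used, and 4 columns of other libraries were not used.

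Values were tested as log2(value + 1) with limma 3.58.1 in R 4.3.3 (empirical Bayes with a mean-variance trend) over all genes with a mean of at least 1, within each table. The difference of responses was an interaction over all 8 libraries on the 57069 symbols used once in each table. P-values were adjusted by Benjamini-Hochberg over all genes, and 0.05 was the threshold. The added 1 understates the change of low genes. Scripts were run on simulated data with known changes in a small part of the genes, unlike these data, where many genes were called. The outcome of that run is not given here. Members with an adjusted p under 0.05 were named, and the largest changes, up to 8 per direction and comparison, were given in full with WARS1, GARS1, KARS1 and the scaffold genes. A few genes that enter the counts are not reported here by name. The 40 genes, the lists beside them and the rules were chosen with earlier results of these data known.

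Low values of single-exon genes under normoxia gave estimated depths of 35702043 and 30695020 reads for shPP and 28023415 and 35690799 reads for shNT libraries, at which 90.4% to 91.1% of such values lay within 0.02 of a whole read. Under hypoxia at most 11.9% did, so the depth there is unknown, and error was taken from the spread between libraries. The closing section gives the effect of the alternatives tried: pseudocounts of 0.1 and 0.01, no filter or a mean of at least 5, other scalings, a stricter threshold of 0.01, a replicate block, no trend, one fit of all libraries, and leaving out each library.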

Additional observations from a re-analysis of the deposited data

Results flagged for a closer look

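The knockdown response under hypoxia differed from that under normoxia, by limma's interaction test with Benjamini-Hochberg adjustment over all genes tested, in 25 of the 38 genes tested under both. Of all 13585 genes tested, 42.4% differed, 29% with a more negative and 13.4% with a more positive response under hypoxia. The median difference of all genes was -0.13. With size factors 15 of the 38 passed, beside 5573 of all 13585 genes. With libraries scaled without genes of the mitochondrial genome 16 of the 38 passed, beside 5324 of all 13585. With either scaling the share of the 38 called lay near that of all genes. The values below are without these scalings. The oxygen levels are also separate tables, which cannot be told apart from oxygen here. Each value here is the log2 fold change of shPP over shNT under hypoxia minus that under normoxia. In the scaffold genes it was -1.36 for EEF1E1, -0.92 for AIMP2 and -0.46 for AIMP1. In cytosolic or dual enzymes it was -1.21 for FARSB, -0.93 for MARS1, -0.88 for VARS1, -0.66 for HARS1, -0.45 for SARS1, -0.39 for FARSA, -0.37 for KARS1, -0.31 for YARS1 and -0.30 for RARS1. Smaller differences, with adjusted p between 0.0304 and 0.0446, were -0.25 for IARS1, -0.24 for WARS1, -0.23 for TARS1 and -0.23 for NARS1. In mitochondrial enzymes it was -0.73 for HARS2, -0.72 for RARS2, -0.67 for NARS2, -0.56 for MARS2, -0.44 for WARS2 and -0.26 for CARS2. It was above 0 in 3 genes, IARS2 (0.33) and EPRS1 (0.34) among them. In 10 of the 25 the call did not hold when 1 library was left out, with the direction kept. CARS2 (-0.29 to -0.20), TARS1 (-0.27 to -0.19) and WARS1 (-0.25 to -0.19) did not pass without any 1 of 7 of the 8 libraries, NARS1 (-0.26 to -0.19) and FARSA (-0.41 to -0.28) of 6, and EPRS1 (0.28 to 0.36), IARS1 (-0.29 to -0.22) and WARS2 (-0.46 to -0.33) of 5. RARS1 did not pass without control library 1 under normoxia or shPP library 1 under hypoxia (-0.26 each), nor IARS2 without control library 2 under normoxia (0.28). With 2 libraries per group no single library could be tested as standing apart.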

How the results depend on the processing

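No member's called change reversed under any alternative. Of 1276 values of single members under an alternative, 1115 kept their call and 161 no longer passed, and 49 of the 80 called results passed under every one. Members called were 18 under normoxia (12 to 19 with 1 library left out), 35 under hypoxia (29 to 34) and 27 for the difference (18 to 26), the last falling to 17 with size factors, of which SARS2 and VARS2 had no usable normoxia value. The median log2 fold change of members under normoxia, -0.19, was -0.21 with a pseudocount of 0.1, -0.22 with 0.01, -0.18 with no filter, -0.17 with a mean of at least 5 or with all 8 libraries in one fit, -0.26 with size factors, -0.14 without genes of the mitochondrial genome, and -0.22 to -0.18 with 1 library left out. Under hypoxia, -0.54, it was -0.47 with size factors, -0.35 without genes of the mitochondrial genome and -0.60 to -0.53 with 1 library left out. Relative to all genes, the median of members stayed at -0.26 under normoxia and between -0.48 and -0.46 under hypoxia with size factors and without genes of the mitochondrial genome. Across the other alternatives it ran between -0.29 and -0.21 under normoxia and between -0.54 and -0.44 under hypoxia. All genes called under normoxia, 4818, were 2147 at an adjusted p under 0.01, 2349 with no filter and 3027 to 4503 with 1 library left out, and those for the difference, 5760, were 3635 at an adjusted p under 0.01. Deviations of same-numbered libraries correlated at r of 0.040 under normoxia and -0.015 under hypoxia. No shared deviation by number was seen, which cannot settle whether same-numbered libraries were prepared together. With the replicate block, members called were 19 under normoxia, 35 under hypoxia and 22 for the difference, and all genes called 5060, 7751 and 5471. The share of members' promoters with the core was 15.2% from 100 bases before the start, against 1.83% of all promoters, and 9.09% in the 250 bases before the start, a window added after seeing the data, against 3.14%. No depth could be recovered for the hypoxia libraries, so counting error there could not be set apart from replicate spread. The cause of these changes was not tested.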

Other observations

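Genes close in name to the members gave values outside the comparisons. TARS3, a cytosolic threonine enzyme paralog, rose under both oxygen levels, by 0.38 under normoxia (adjusted p = 0.0112) and 0.54 under hypoxia (adjusted p = 0.007, limma), while TARS1 and TARS2 fell under both. AARSD1, an editing protein for mischarged alanine tRNA, was listed at 0 in all normoxia libraries, and had 11.8 and 9.79 FPKM in shPP cells, against 24.4 and 26.1 FPKM in shNT cells under hypoxia (-1.16, adjusted p = 0.000151). Of 17 pseudogenes of the members found by symbol, 1 reached 1 RPKM in a normoxia library (EEF1E1P1, 1.14 RPKM) and 0 reached 1 FPKM under hypoxia.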
